A study of Mus musculus with 148 samples.

Results

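Oxidative phosphorylation is the step of respiration in which the electron transport chain of the inner mitochondrial membrane pumps protons and ATP synthase uses the gradient to make ATP. Complex I takes electrons from NADH, complex III passes them to cytochrome c, complex IV hands them to oxygen, and each of these complexes and ATP synthase is built from subunits of 2 genomes, the nuclear and the mitochondrial. In immune cells the demand on this pathway differs by type, and neutrophils are known for few mitochondria and a reliance on glycolysis. The genes described here were taken by symbol from the gene rows of single-cell count tables: names that start with Ndufa, Ndufb, Ndufc, Ndufs, Ndufv, Uqcr, Cox4i, Cox5, Cox6, Cox7 or Atp5, and the mt- names of the NADH dehydrogenase, cytochrome oxidase, cytochrome b and ATP synthase genes. After 7 rows with a -ps name were left out, 99 of 52634 rows remained, 86 nuclear and 13 mitochondrial.

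By symbol, the nuclear members comprised 38 complex I subunits, 8 complex I assembly factors (Ndufaf), 8 members of complex III, 15 of complex IV and 17 of ATP synthase. This rule put Ndufa4, described below as a complex IV subunit, and its paralog Ndufa4l2 with complex I. It put Atp5sl, which GENCODE names Dmac2, with ATP synthase, and the values by complex below follow the rule. The mitochondrial members comprised 7 for complex I, mt-Cytb for complex III, 3 for complex IV and 2 for ATP synthase. UMIs were found in 97 of the 99. The testis isoform Cox6b2 and mt-Nd6, the mitochondrial gene on the other strand of chrM, were at 0 in every cell.

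The cells were CD31- immune cells from female PA-GFP C57BL/6 mice, which carry a photoactivatable GFP in their own cells. Normal lungs came from 3 control mice. All other mice had received EO771-tdTomato breast cancer cells in a mammary gland at 8 weeks of age. Pre-MET lungs (3 mice) were taken at day 20 before resection of the tumor, and Primary samples (4 mice) are tumors, of which 3 came from the Pre-MET mice. After resection at 3 weeks, lungs were sampled from 6 Relapse-free mice and, in mice with lesions on CT, as MET (13), Distal normal tissue (14), MET Core (13) and MET Invasive margin (7). Core and margin cells were sorted as GFP+ after photoactivation, so cells of those groups passed another gate than the CD45+ cells of the other groups, except that some plates of Relapse-free mice 6 and 7 were also sorted by GFP. Lungs and tumors were dissociated with different programs.

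The immune cells numbered 23425 in 27 labels of the deposited annotation, with a median of 1133 UMIs per cell, a UMI being the tag that counts each captured molecule once. A median cell held 21 UMIs of the nuclear members and 18 of the mitochondrial ones, which is too few to compare single cells. UMIs were therefore summed over the cells of 1 label in 1 mouse and tissue status, for sums of 10 or more cells, and expressed per 1000000 UMIs (CPM). This gave 510 sums of 10 to 411 cells and 5720 to 731354 UMIs from 63 samples of 27 mice. All CPM values are shares of a total, and in such sums fewer cells rich in these transcripts and fewer transcripts per cell cannot be told apart. Over all immune cells the nuclear members held 1.96% of UMIs and the mitochondrial members 1.59%. The libraries belonged to 12 sequencing batches, and every Normal plate, and no other plate, was in batch SB102.

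The labels were checked against defining markers. Lef1 averaged 425 CPM in T_CD4_Lef1 (naive CD4 T cells) against 39.2 in the other labels, Fn1 1027 against 90.4 in Mon_Fn1 (fibronectin monocytes), Ace 559 against 30.9 in Mon_Ace (classic monocytes in the study), Gpnmb 2394 against 13.4 in Mac_Gpnmb (regulatory macrophages, Mreg) and Chil3 11599 against 458 in Mac_Cd9 (alveolar macrophages). Mac_Isg20 is called by its label only, because Il1b, taken as a marker of it, averaged 1435 CPM there and 2777 elsewhere.

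Nuclear subunit genes share promoter motifs of the respiratory factor NRF1 and of ETS family factors, so the sequence around the start was read for the 69 of 86 nuclear members that matched the RefSeq promoter table (GRCm38.p6, 250 bases before to 50 after the start). The NRF1 core GCATGCGC, on either strand, was found in 15.94% of these members against 3.05% of the 27025 genes with a nuclear promoter there. For the ETS motif CCGGAAG, on either strand, the shares were 21.74% and 9.93%. A gene counted once if any of its promoters held the motif. The NRF1 core can overlap its own reverse complement. These shares describe letters, not bound sites. Cox6a1, the widely expressed form of complex IV subunit 6a, and Uqcr11, a small subunit of complex III, hold both kinds of motif and are shown for that reason. The Cox6a1 promoter lies at chr5:115348909-115349208 and that of Uqcr11 at chr10:80406772-80407071, both on the minus strand, and capitals mark the motifs.
Cox6a1: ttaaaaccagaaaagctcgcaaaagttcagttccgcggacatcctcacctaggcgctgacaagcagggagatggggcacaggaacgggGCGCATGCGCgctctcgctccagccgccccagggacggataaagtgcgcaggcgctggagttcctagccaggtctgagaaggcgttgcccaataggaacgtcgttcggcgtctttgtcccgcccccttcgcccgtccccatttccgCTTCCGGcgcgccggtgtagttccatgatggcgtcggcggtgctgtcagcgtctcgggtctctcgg
Uqcr11: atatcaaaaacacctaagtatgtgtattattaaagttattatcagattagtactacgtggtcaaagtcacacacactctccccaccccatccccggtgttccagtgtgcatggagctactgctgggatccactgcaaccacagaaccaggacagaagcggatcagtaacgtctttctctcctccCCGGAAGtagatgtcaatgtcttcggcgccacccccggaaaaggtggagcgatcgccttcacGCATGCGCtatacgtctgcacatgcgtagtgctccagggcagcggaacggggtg

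The mitochondrial members have stretches of near-identical DNA in the nucleus, and this decides what their counts mean. In the GRCm38 annotation a run of pseudogenes on chromosome 1 copies several of them. Gm29216, at chr1:24615706-24616197, matched mt-Co1 (chrM:5328-6872), the catalytic subunit of complex IV, over 483 bases with the single substitution A1066T (the base of mt-Co1 first, counted from the first base of mt-Co1). The sequences around it, at chrM:6390-6413 in mt-Co1, are shown with the substituted base in capitals.
mt-Co1: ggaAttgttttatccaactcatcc
Gm29216: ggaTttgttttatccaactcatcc
The last 60 bases of mt-Co1, at chrM:6813-6872, are the same in both, so that a read from there has no base that tells them apart.
mt-Co1 and Gm29216: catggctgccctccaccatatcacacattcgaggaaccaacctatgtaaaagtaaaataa
Gm28437, at chr1:24613189-24613971, equals mt-Co3 (chrM:8607-9390) over 783 bases, and the last 60 shared bases, at chrM:9330-9389, were the following.
mt-Co3 and Gm28437: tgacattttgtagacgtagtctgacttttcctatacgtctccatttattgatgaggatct
In the count tables Gm29216 held 204062 UMIs beside 97923 for mt-Co1, which is 67.6% of both. Gm28437 held 44458 beside 24347 for mt-Co3, or 64.6% of both. For mt-Co1 and mt-Co3 the deposited mt- row thus held the smaller share of the counts that remained in both rows. Pseudogene rows equal to mt-Co2 (Gm28661), mt-Atp6 (Gm10925) and most of mt-Nd4 (Gm28439) were at 0. The authors excluded reads with multiple mapping positions, so reads from identical stretches can be missing from both rows. A copy row at 0 therefore does not show that the mt- row is complete, and the number of such reads is not known here. No annotated transcript matched mt-Cytb, mt-Nd1, mt-Nd2, mt-Nd5, mt-Atp8 or mt-Nd6 with at least 99% identity. Nuclear stretches without a transcript were not searched, and mt-Atp8 (577 UMIs) lies on chrM beside mt-Co2 and mt-Atp6, which both have copies. The sum of these 6 rows is given below as the sum without close copies. Less similar copy rows also held counts, as Gm13339 with 27721 UMIs beside 47688 of mt-Nd2 (96.7% identity, 36.8% of both) and Gm13341 with 8044 beside 43124 of mt-Co2 (95.9% identity, 15.7% of both), so that sum is not free of counts that lie in pseudogene rows.

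Among nuclear members, 14 had a row of at least 99% identity that was counted separately, and in 9 of them those rows held more UMIs than the gene. For Cox7c, a small subunit of complex IV, copy rows held 83.9% of the UMIs of gene and copies, for Atp5l, a membrane subunit of ATP synthase 81.5%, and for Atp5h, a stalk subunit, 74.7%. Levels of these genes are therefore uncertain. All matching rows together held 97636 UMIs beside 876015 of the nuclear members. Some of these rows share only a stretch with the member. Donson, another protein-coding gene, shares 287 bases with Atp5o, and Gm11966 (6684 UMIs) matches 87 bases of Atp5j.

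Cell labels differed widely in these transcripts. Since the labels come from clustering these same cells on expression, the levels are a description without a test. Neutrophil labels had the lowest mean sums. In Neut_Lcn2 the nuclear members summed to 6325 ± 1402 CPM and the mitochondrial members to 2249 ± 667 (SD, n = 24 sums), and in Neut_Ptgs2 to 6848 ± 1937 and 2822 ± 1472 (n = 29). The highest nuclear sum of any Neut_Lcn2 sample was 9775 CPM, below the lowest of Mon_Fn1, 14249. In the 22 samples with both labels, Neut_Lcn2 was lower than Mon_Fn1 every time, by a mean of -2.04 ± 0.29 on the log2 scale for nuclear and -2.67 ± 0.47 for mitochondrial members. Single sums of other neutrophil labels reached further. Those of Neut_PMN-MDSC went up to 13641 CPM of nuclear and 11665 of mitochondrial members, above the lowest sums of some monocyte and macrophage labels. The mitochondrial ribosomal RNAs mt-Rnr1 and mt-Rnr2, which are no members, had another order. Their sum was 10045 ± 2377 CPM in Neut_Lcn2 and 10329 ± 3019 in Neut_Ptgs2, above 6922 ± 2608 in Mon_Fn1, and it was highest of all 26 labels in Neut_Ifit3, at 12934 ± 3917 (n = 16).

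Among the other labels the nuclear sum varied less than the mitochondrial sum. Across the 20 non-neutrophil labels with 5 or more sums, label means of the nuclear sum spanned 17339 CPM (Mac_Gpnmb) to 25444 (NK_Xcl1), which is 1.47-fold. Means of the mitochondrial sum spanned 7178 (Mac_Isg20) to 35245 (B), which is 4.91-fold. Across these 20 means, which share libraries and depth, the 2 sums were almost unrelated (Pearson r = 0.09, Spearman rho = 0.19). With the 4 neutrophil labels r was 0.60 over 24 labels, and without close copies it was 0.08 and 0.58.

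Lymphocytes of naive type and B cells had the highest mitochondrial sums. B cells reached 35245 ± 6191 CPM (n = 30), T_CD8_Dapl1 29965 ± 6447 (n = 9) and T_CD4_Lef1 29058 ± 4958 (n = 46), while their nuclear sums of 18130 ± 3352, 22890 ± 2775 and 19221 ± 3275 were not the highest. Mon_Fn1 had the reverse balance, with 24423 ± 4530 CPM of nuclear and 13361 ± 2562 of mitochondrial members (n = 54). Within the 40 samples that held both, the nuclear sum of Mon_Fn1 exceeded that of T_CD4_Lef1 in 34, by 0.32 ± 0.27 log2, and the mitochondrial sum was lower in all 40, by -1.14 ± 0.27. In the Normal batch SB102 the nuclear difference was -0.044, so its direction was not the same in every batch. Neighbors in the order of the nuclear sum differed by less than 1 SD throughout, except between DC_migDC (3 sums) and Neut_Camp (4 sums), where the neutrophil labels begin.

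**Figure D1:**
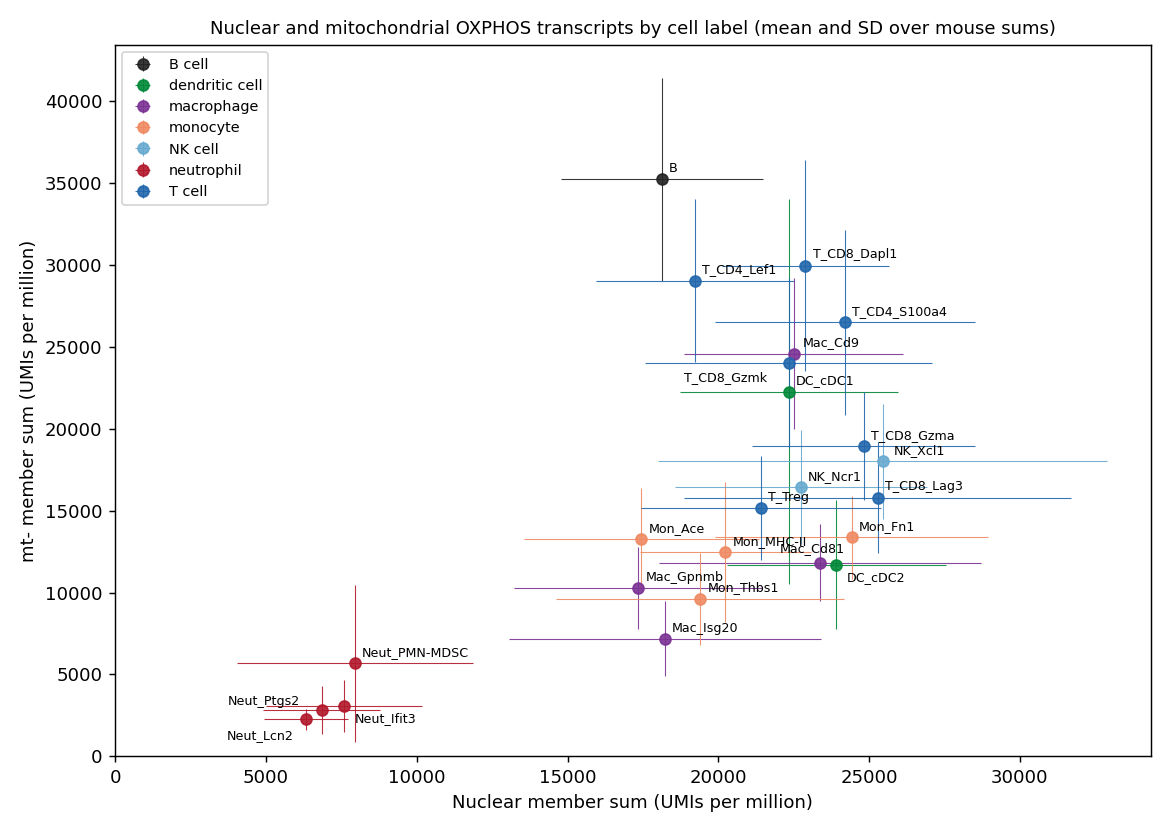
Mean nuclear member sum (horizontal axis) against mean mt- member sum (vertical axis), both in CPM, for the 24 labels with 5 or more sums, with bars of 1 SD over sums of mice. The 4 neutrophil labels sit near the origin, and the other 20 form a column that is narrow in the nuclear sum (17339 to 25444) and tall in the mt- sum (7178 to 35245).

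T cell states differed in the same 2 directions. In the 7 samples with both, T_CD8_Lag3 (dysfunctional CD8 T cells in the study) had a nuclear sum above T_CD8_Gzmk in 6, by 0.20 ± 0.17 log2, and a mitochondrial sum below it in all 7, by -0.40 ± 0.22. T_Treg stood to T_CD4_Lef1 in the same way, with 0.20 ± 0.22 for nuclear members (higher in 5 of 7) and -0.81 ± 0.35 for mitochondrial members (higher in 0 of 7). T_CD4_S100a4, activated CD4 T cells, exceeded T_CD4_Lef1 in the nuclear sum in 24 of 26 samples by 0.30 ± 0.23 and was above it in the mitochondrial sum in 6. The mean mitochondrial difference of that pair was -0.22 ± 0.27, and its exceptions fell by tissue: T_CD4_S100a4 was higher in all 3 Normal, 2 of 3 Primary and 1 of 2 margin samples and in none of the other 18. Its nuclear sum was higher in 1 of 3 Primary samples and in all 23 others. The mean mitochondrial differences of these 3 contrasts kept their signs with the sum without close copies.

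Macrophages and monocytes were spread as widely. Mac_Cd9, the alveolar macrophages, had 22504 ± 3630 CPM of nuclear and 24598 ± 4596 of mitochondrial members (n = 11), and in 10 of 10 samples exceeded Mon_Fn1 in the mitochondrial sum, by 1.00 ± 0.32 log2, with nuclear sums that differed by -0.039 ± 0.24. Mac_Gpnmb exceeded Mac_Isg20 in the mitochondrial sum in 9 of 9 samples by 0.50 ± 0.31, while the nuclear sums differed by -0.037 ± 0.22. In the sum without close copies Mac_Gpnmb was higher in 8 of 9, by 0.51 ± 0.49, with a lowest value of -0.442. Mac_Cd9 exceeded Mon_Fn1 in that sum in 10 of 10, by 1.16 ± 0.43. Mon_Ace had a lower nuclear sum than Mon_Fn1 in all 31 samples with both, by -0.49 ± 0.21, with mitochondrial sums that differed by -0.065 ± 0.29.

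The mix of complexes within the nuclear sum varied little. Over the 24 labels, complex I subunits held between 40.3% (Mac_Cd9) and 44.9% (Neut_Lcn2) of nuclear member UMIs, complex III 10.1% (NK_Xcl1) to 15.6% (Neut_PMN-MDSC), complex IV 17.4% (T_CD8_Dapl1) to 23.8% (Neut_PMN-MDSC) and ATP synthase 17.3% (Neut_PMN-MDSC) to 28.6% (NK_Xcl1). The extremes of the last 3 were labels with 5 to 9 sums. Complex I assembly factors, which build the complex and are not part of it, held 0.97% (Neut_Ifit3) to 2.78% (T_CD8_Dapl1). Of them Ndufaf8 averaged 391 ± 225 CPM in T_CD8_Dapl1 and 190 ± 181 in the next label, T_CD8_Gzmk, a gene singled out after its values were seen.

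The 12 nuclear members with the highest mean CPM were named by rule. UMIs were not divided by gene length, so the levels are compared between labels and not between genes. Complex IV supplied Cox4i1, a core regulatory subunit, Cox6a1 and Cox6b1. ATP synthase supplied its catalytic beta and alpha subunits Atp5b and Atp5a1 with the smaller Atp5e and Atp5j. Complex I supplied the accessory subunits Ndufa2, Ndufa3, Ndufa6, Ndufa13 and Ndufb7. All 12 had their lowest label mean in a neutrophil label. Cox4i1 ranged from 368 ± 212 CPM in Neut_Ptgs2 to 1245 ± 431 in T_CD8_Lag3. Atp5b ranged from 140 ± 131 in Neut_PMN-MDSC to 1072 ± 348 in T_CD8_Dapl1, Cox6b1 from 254 ± 166 in Neut_Lcn2 to 1000 ± 281 in Mac_Cd81, and Ndufa6 from 158 ± 106 in Neut_Lcn2 to 1202 ± 564 in DC_cDC1. The highest labels included T, NK, dendritic and macrophage labels, and in each of these 4 genes the SDs of the top 2 labels overlapped.

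Most isoforms that are known for particular tissues were near the limit of detection. Within the 510 sums, the lung and hypoxia isoform Cox4i2 had 28 UMIs, 0.074% of those of Cox4i1 and Cox4i2, the muscle isoforms Cox6a2 and Cox7a1 had 117 and 175 UMIs, and Ndufa4l2, a hypoxia-induced paralog of the complex IV subunit Ndufa4, had 3 UMIs in 3 sums beside 11693 of Ndufa4. Over all immune cells, which include those of labels with under 10 cells in a sample, Cox4i2 had 40, Cox6a2 344, Cox7a1 213 and Ndufa4l2 4 UMIs. Of the 344 UMIs of Cox6a2, 200 (58.1%) lay in the 73 cells of DC_pDC, plasmacytoid dendritic cells, of which no sample had 10. That is 843 CPM in those cells pooled, beside 12.8 in NK_Ncr1 and 20.3 in Mac_Gpnmb, and 11 of the 20 mice with such cells had a Cox6a2 UMI there, 55 at most in 1 mouse. This label was singled out after its values were seen. Cox7a2l was highest in T_CD8_Dapl1 (477 ± 255 CPM) and T_CD4_Lef1 (455 ± 218) and lowest in Neut_Ptgs2 (68.0 ± 67.1). Its copy row Gm6969, counted apart, held 26.5% of the UMIs of both. The identical c subunit of ATP synthase is encoded by Atp5g1, Atp5g2 and Atp5g3, which held 41.8%, 2.22% and 55.9% of their joint UMIs in the sums, with copy rows of Atp5g1 and Atp5g2 counted apart.

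Mitochondrial genes followed the label order of their sum with exceptions. mt-Cytb, of complex III, averaged 9272 ± 2156 CPM in B and 380 ± 231 in Neut_Lcn2, and mt-Nd1, of complex I, 7858 ± 2311 and 241 ± 141. mt-Nd2, mt-Nd4 and mt-Nd5 were also highest in B, at 2526 ± 726, 3944 ± 1256 and 1679 ± 605 CPM. mt-Co2 was highest in DC_cDC1, at 3160 ± 3478 over 5 sums, where the SD exceeds the mean. mt-Co1 was highest in B (4262 ± 1451), mt-Co3 in Mac_Cd9 (1139 ± 439) and mt-Atp6 in T_CD8_Dapl1 (2533 ± 1330). mt-Atp8, mt-Nd3 and mt-Nd4l stayed under 110 CPM in every label mean.

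Some mitochondrial rows varied far more between sequencing batches than others. In T_CD4_Lef1, a label present in all 12 batches, mt-Co2 ranged from 473 CPM in SB132, a batch of primary tumors alone, to 4515 in SB99, which is 9.54-fold. mt-Atp6 ranged 5.59-fold, mt-Co3 5.07-fold and mt-Co1 4.32-fold, and the pseudogene row Gm29216 ranged 10.1-fold from 2370 to 23938. The better counted rows without a copy of at least 99% identity varied less, mt-Nd2 by 1.76-fold, mt-Cytb by 2.14-fold, mt-Nd1 by 2.69-fold and mt-Nd5 by 2.96-fold, while mt-Atp8, a row of few counts, ranged from 0 to 74.5 CPM. mt-Nd4, with a copy over part of its length, varied by 1.92-fold. In Mon_Fn1 the order of single rows was not the same, but mt-Co1 (4.12-fold), mt-Co3 (4.97-fold), mt-Atp6 (6.77-fold) and mt-Co2 (10.4-fold) again ranged more widely than mt-Nd4 (1.78-fold), mt-Cytb (1.83-fold), mt-Nd1 (2.13-fold), mt-Nd2 (2.40-fold) and mt-Nd5 (3.39-fold). Batch and tissue status are partly the same in this series, so the batch values of the mt- rows hold both. The nuclear sum differed between batches as well, also within 1 status. Pooled Mon_Fn1 cells of Distal normal tissue had 30631 CPM in SB112 (1 mouse), 27482 in SB118, 22485 in SB124 and 18108 in SB128. In T_CD4_Lef1 of that tissue the values were 21147, 18708, 15706 and 15957 in the same batches.

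**Figure D2:**
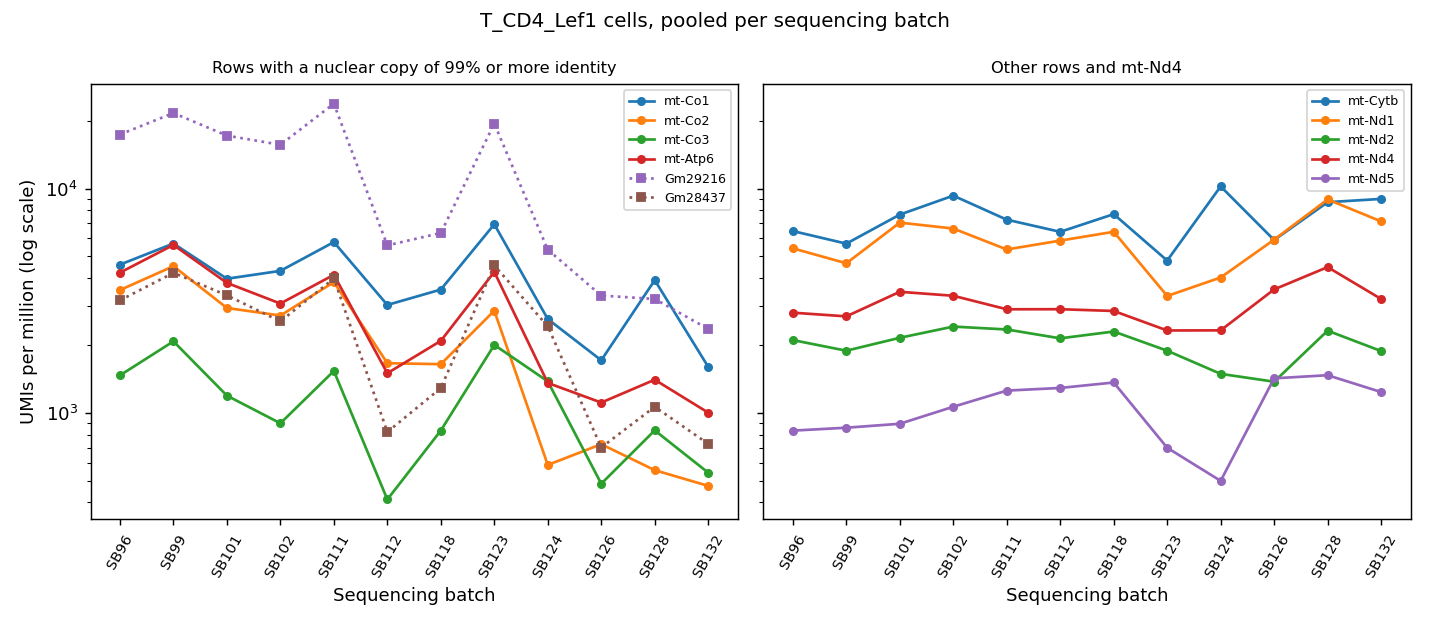
CPM (log axis) in T_CD4_Lef1 cells pooled within each of the 12 sequencing batches, for mt- rows with a nuclear copy of 99% or more identity and 2 pseudogene rows (left) and for other mt- rows with mt-Nd4 (right). Lines join the points of 1 row and imply no order of batches. mt-Co2 spans 473 to 4515 on the left, and mt-Nd2 spans 1.76-fold on the right.

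Members were tested between tissue states within 1 label, in 13 comparisons with edgeR's quasi-likelihood test and Benjamini-Hochberg adjustment over all genes tested, a call being an adjusted p below 0.05. After the filter on low counts, 9 to 70 nuclear and 9 or 10 mitochondrial members entered these fits. The only member called was mt-Co1 in Mon_Ace of Pre-MET against Normal lungs, where 0.371% of the 1618 genes tested were called, 0.309% as higher. It stood at 2741, 3578 and 3672 CPM in the Pre-MET mice and 1719, 1542 and 1275 in the Normal mice. These groups did not overlap, but of the 5 Relapse-free mice mouse 6 stood at 3511, inside the Pre-MET range, and the others at 1587 to 2386. Normal mice were a batch of their own, and mt-Co1 has the close copy Gm29216. The fitted difference from Normal was 1.09 ± 0.22 log2 (SE, adjusted p = 0.039). The call was lost when any mouse but Pre-MET mouse 8 was left out and with cells of at least 1000 UMIs.

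In the other 12 comparisons edgeR called 0 members. Calls among all genes were rare there as well, at 0.0303% in NK_Ncr1 of Relapse-free against Normal, 1.24% in Mon_Thbs1 and 0.99% in T_CD4_Lef1 of Primary against MET Core, and 0% in the other 9. Between 0 and 10 members had an unadjusted p under 0.05, beside 0.641% to 17.3% of all genes, and the count of 10, in T_CD4_Lef1 of Pre-MET against Normal lungs (66 nuclear and 9 mitochondrial members tested), stood beside 13.6%. DESeq2 called 2 in T_CD4_Lef1 of Pre-MET against Normal lungs, 2 in Mon_Thbs1 and 1 in T_CD8_Gzmk of Primary against MET Core, and 0 in the others. Its share of calls over all genes is not given here. A count of 0 calls does not show that members did not differ. The other genes of the pathway fixed as a list (53 genes of complex II, cytochrome c, complex IV assembly, carriers, the citrate cycle and their regulators, of which 2 to 32 were tested) had 0 calls in all 13 comparisons.

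In the 2 labels tested, members did not pass the test between metastases and tissue of the same lungs away from lesions. In Mon_Fn1 the nuclear sum was 23917 ± 5352 CPM in MET and 24858 ± 4390 in Distal normal tissue and the mitochondrial sum 13274 ± 2350 and 13687 ± 1739 (n = 13 each). The median log2 fold change of the 56 nuclear members tested was -0.028, beside -0.018 over all 1292 genes. Within batches SB118, SB124 and SB128 the difference of mean log2 nuclear sums, MET less Distal normal tissue, was -0.019, -0.212 and 0.239. For mitochondrial sums it was -0.088, -0.179 and -0.217. The mice on the 2 sides were not all the same, so these differences are not paired. In SB128 mice 31 and 32 had a MET sum alone. Mice 36 and 37 had nuclear sums of 16408 and 18642 CPM in MET and 17943 and 18320 in Distal normal tissue. In T_CD4_Lef1 the same sums were 17589 ± 2558 and 17865 ± 3289, and 30498 ± 4842 and 28890 ± 4684 (n = 8 and 10). No member's groups were apart in either label, and the share over all genes was 0% too. For Mac_Gpnmb the core and margin sums overlapped, at 13975 ± 2090 and 17225 ± 5062 CPM for nuclear members (n = 3 and 4), as they did for T_CD8_Gzmk and T_CD4_Lef1. Of 43 nuclear members tested in Mac_Gpnmb, 10 had a log2 fold change above 0, beside 43.8% of all genes. The difference of mean log2 nuclear sums there, -0.272, turned to 0.122 with the lineage in place of the label. In the same sums markers of lung epithelium had medians of 0 in the core (all 3 markers at 0) and 49.3 CPM in the margin (up to 230), neutrophil markers had medians of 77.4 and 227, and erythroid markers were at 0 in the core and reached 524 in the margin. The part of these was not tested. Within mice that had both tissues, the mitochondrial sum of T_CD4_Lef1 was lower in the core in all 3, by 0.17 to 0.27 on the log2 scale, lower in 3 of 4 for T_CD8_Gzmk, and higher by 0.88 in the 1 mouse with both sums of Mac_Gpnmb. The sum without close copies was lower in the core in 3 of 3 and 3 of 4 and higher by 0.92 in that mouse. In that mouse, 36, the mitochondrial sum of the margin was 5477 CPM from 11 cells, while the other 3 margin sums of Mac_Gpnmb were 10755 to 11799. Within batch SB124, with 1 core and 2 margin sums of other mice, the difference was -0.223. Signs of 1 to 4 pairs carry no test here, and the fits with the mouse as a block called 0 members.

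Sums of primary tumors and metastatic cores also overlapped in every tested label, but in Mon_Thbs1 the overlap of the nuclear sum rested on 1 mouse. In Mon_Thbs1 the nuclear sum was 17485 ± 1187 CPM in Primary (n = 4) and 21738 ± 5366 in MET Core (n = 8), where the lowest core sum was 10236, from 16 cells of mouse 36. The other 7 cores had 20830 to 27649 CPM, above the highest Primary value of 19154, so without that mouse the groups did not overlap. Mouse 36 was also the only core in a batch with a Primary sample, and within that batch, SB128, Primary mouse 8 had the higher sum (19154 against 10236 CPM), so batch and tissue cannot be told apart for the other cores. Of 60 nuclear members tested, 17 had a log2 fold change above 0, beside 52% of all genes. Tissue handling genes (Fos, Jun, Hspa1a and the like) had a median sum of 11245 CPM in Primary and 6041 in MET Core of Mon_Thbs1. In T_CD8_Gzmk the mitochondrial sum was 15318 ± 1884 in Primary (n = 3) and 20676 ± 3523 in MET Core (n = 11), and mt- members had a median log2 fold change of -0.45, beside 0.077 over all genes. The difference of mean log2 sums, -0.42, turned to 0.098 with all T cells in place of the label. The Primary sums of T_CD8_Gzmk were all in batch SB132, which held no core, so status and batch cannot be told apart. In the same sums the handling genes had a median of 1550 CPM in Primary and 3171 in MET Core (median log2 fold change of the 4 tested -0.94), and the neutrophil markers S100a8 and S100a9 of 0 and 215. In T_CD4_Lef1 these medians were 1285 and 3957 CPM for handling genes, of which Fos was called lower in Primary, and 4.64 and 624 for neutrophil markers. The part of these in the member values was not tested. Outside the tested labels, Mac_Cd81 had nuclear sums of 17041, 18508, 18604 and 18969 CPM in the 4 Primary samples and 27119, 28182 and 30262 in the 3 MET Core samples, which do not overlap. Mac_Cd81 was singled out after its values were seen, and gaps between groups in the other untested labels were not counted. Its mitochondrial sums were 13407 ± 2083 and 10751 ± 1196 and overlapped. The difference of these nuclear means, 18280 and 28521, is at least as wide as the range of label means outside neutrophils given above. The Primary samples of Mac_Cd81 were in batches SB128 and SB132 and the cores in SB118 and SB123, and gate and dissociation program differed too, so tissue, batch and handling cannot be told apart.

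Relapse-free lungs against Normal lungs gave lower nuclear values in lymphocytes, without a call. In T_CD4_Lef1 the nuclear sum was 20312 ± 2407 CPM in 6 Relapse-free mice and 23910 ± 673 in 3 Normal mice, which overlapped. Of 70 nuclear members tested, 10 had a log2 fold change above 0, beside 49.1% of all genes, and the median was -0.23. In NK_Ncr1 the figures were 21 of 68, and a median of -0.18 beside -0.007 over all genes. In Mon_Ace the median was -0.029. Other features differed between these groups as well. The tissue handling genes summed to 1555 to 2703 CPM in Relapse-free and 889 to 1721 in Normal mice in T_CD4_Lef1, and to 1280 to 2391 and 1123 to 2117 in NK_Ncr1. The neutrophil markers had medians of 1122 and 273 CPM in T_CD4_Lef1 and 861 and 288 in NK_Ncr1. The part of these in the member values was not tested, and Normal mice were again a batch of their own.

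Pre-MET lungs stood above Normal and Relapse-free lungs in the member sums of Mon_Fn1. After the sums had been seen, this label was added to the comparisons for that reason, so its tests are not independent of that choice. Its nuclear sums were 28746, 29149 and 31042 CPM in the 3 Pre-MET mice, 25106, 23109 and 21495 in the 3 Normal mice, and 19542 to 24676 with a median of 22923 in the 6 Relapse-free mice. Every Pre-MET value lay above all 9 others. Its mitochondrial sums were 18043, 20369 and 21221 CPM in Pre-MET, 11132, 11528 and 10144 in Normal and 10918 to 16578 in Relapse-free mice, again without overlap. The differences were 0.35 and 0.40 log2 for the nuclear sum against Normal and Relapse-free, and 0.86 and 0.56 for the mitochondrial sum. Both comparisons use the same 3 Pre-MET mice. Among lungs with lesions the nuclear sum of Mon_Fn1 ranged as high, up to 31344 CPM in Distal normal tissue, 31794 in MET, 31161 in MET Core and 31887 in MET Invasive margin, so a nuclear sum in the Pre-MET range was not particular to Pre-MET lungs. The highest mitochondrial sum in those 4 groups was 17511 CPM, below the Pre-MET mice. The sum without close copies, however, reached 10026 in MET and 9364 in Distal normal tissue, both in mouse 36, above the highest Pre-MET value of 8791. It also lay above that value in MET of mouse 28 (9710) and in Distal normal tissue of mouse 27 (8811).

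**Figure D3:**
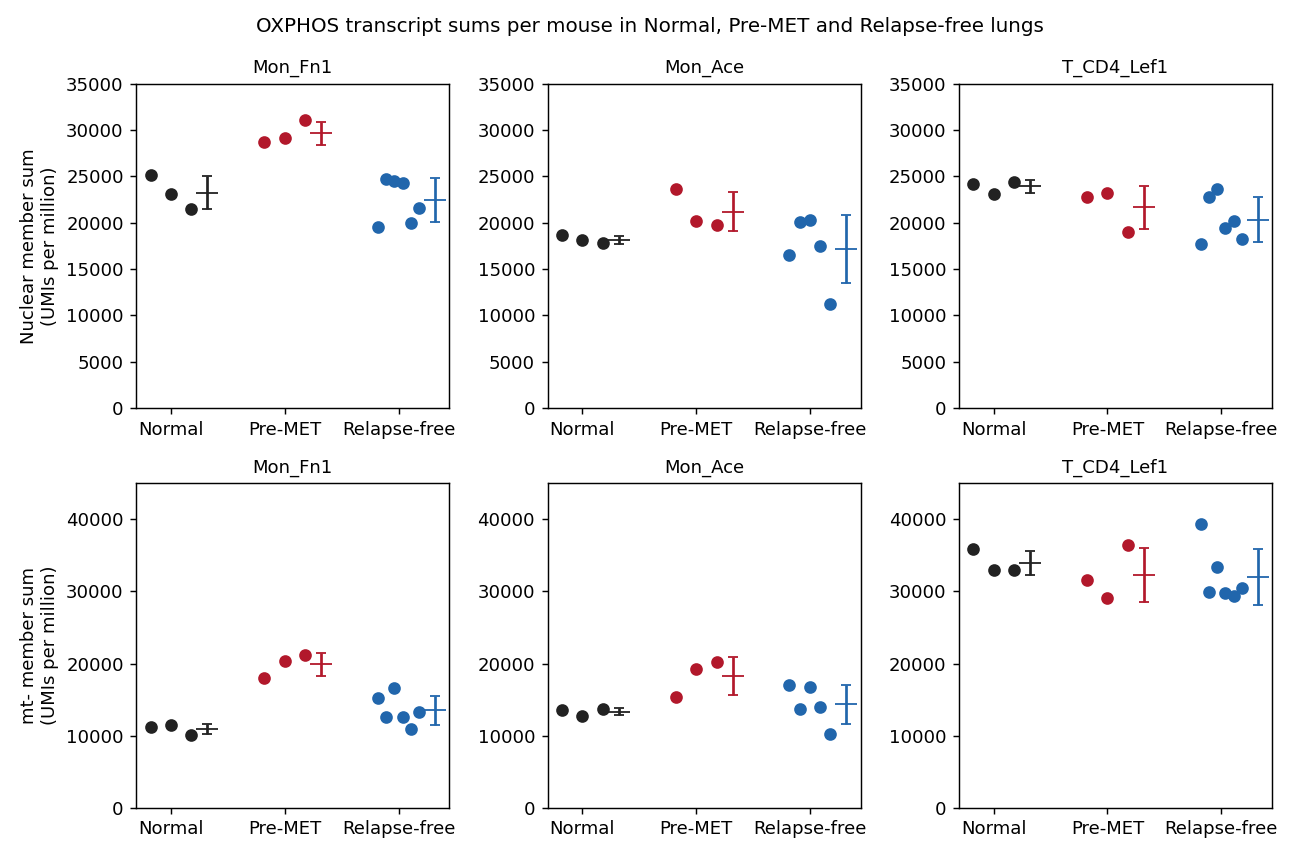
Nuclear (top row) and mt- (bottom row) member sums in CPM of Mon_Fn1, Mon_Ace and T_CD4_Lef1 in Normal, Pre-MET and Relapse-free lungs. Each point is a mouse and the bar beside it is the mean ± 1 SD. In Mon_Fn1 the Pre-MET mice lie above all others in both rows, at 28746 to 31042 and 18043 to 21221, and in T_CD4_Lef1 the groups overlap.

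By complex, Mon_Fn1 of Pre-MET lungs lay above both other groups without overlap for complex I (13547 ± 500 CPM, against 9785 ± 1377 in Normal and 9911 ± 1352 in Relapse-free) and for ATP synthase (6380 ± 583, against 5443 ± 403 and 4678 ± 822). Complex III (3663 ± 137) overlapped Normal (3120 ± 655) and complex IV (5704 ± 235) overlapped Relapse-free (4829 ± 462). Of the 71 nuclear members tested against Relapse-free, 63 had a log2 fold change above 0 beside 51.2% of all genes, with a median of 0.44 beside 0.016. In 11 of the 71 every Pre-MET mouse lay above every Relapse-free mouse, beside 2.07% of all genes. Against Normal, 52 of 67 were above 0 beside 53.2%, and 15 of 67 were apart and higher beside 15.3%, which is a share near the background. The label was chosen because its member sums were high in Pre-MET lungs. The counts and complexes here split up those same sums and are no separate evidence for the difference.

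Against Relapse-free, edgeR called 0.0427% of all genes and no member. No nuclear member was called in either comparison of Mon_Fn1, where 9 of 71 and 12 of 67 were higher at an unadjusted p under 0.05 against Relapse-free and Normal, beside 5.28% and 13.7% of all genes at that p in either direction. Uqcr10, a small subunit of complex III, had the smallest p against Relapse-free. It stood at 763, 1106 and 840 CPM in Pre-MET mice and at 167 to 505 in Relapse-free mice, a difference of 1.25 ± 0.32 log2 with an adjusted p of 0.245. In Normal mice it stood at 425, 363 and 850 and overlapped Pre-MET. Cox4i1 was 1393, 1479 and 1190 CPM in Pre-MET, 628, 1115 and 603 in Normal and 417 to 1395 in Relapse-free mice.

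Among mitochondrial members, 3 were called in Mon_Fn1 of Pre-MET against Normal lungs, where 0.336% of 3273 genes were called, 0.275% as higher. mt-Atp6, a proton channel subunit of ATP synthase at chrM:7927-8607, stood at 2378, 2267 and 2606 CPM in Pre-MET and 1034, 887 and 823 in Normal mice, a difference of 1.39 ± 0.21 log2 (adjusted p = 0.00921). mt-Co3 of complex IV stood at 1295, 1366 and 1115 against 314, 470 and 439 (1.61 ± 0.26, adjusted p = 0.0123). mt-Co2, the complex IV subunit that receives electrons from cytochrome c, at chrM:7013-7696, stood at 2408, 2773 and 2856 against 1255, 1129 and 1042 (1.21 ± 0.20, adjusted p = 0.0127). In the 6 Relapse-free mice mt-Atp6 stood at 721 to 1917 CPM and mt-Co3 at 406 to 911, below every Pre-MET mouse, but mt-Co2 at 411 to 2904, where mouse 6 lay above all 3 Pre-MET mice. These values join the batches of a mouse, and within the shared batch SB99 mt-Atp6 of mouse 6 (2564 CPM) lay above Pre-MET mouse 9 (2267). With 1 mouse left out the fit called 0 to 5 members, and it called 0 without Pre-MET mouse 10 and 1 without Pre-MET mouse 9. DESeq2 called 4. The counted copy rows differed in the same direction. Gm28437, the copy of mt-Co3, stood at 2849, 3130 and 2518 CPM in Pre-MET and 702, 1088 and 740 in Normal mice. Gm29216, the copy of part of mt-Co1, stood at 11916, 12189 and 14525 against 6277, 4689 and 5730. The rows called were among those with a close nuclear copy and the widest range over batches, and Pre-MET and Normal lungs shared no batch, so status and batch cannot be told apart.

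No row without a close copy was called. In Mon_Fn1 the log2 difference of Pre-MET from Normal was 1.03 ± 0.37 for mt-Nd5, 0.75 ± 0.23 for mt-Cytb, 0.74 ± 0.295 for mt-Nd2 and 0.33 ± 0.21 for mt-Nd1 (edgeR adjusted p = 0.241, 0.17, 0.296 and 0.512), and it was 0.87 ± 0.22 for mt-Co1, which has a close copy (adjusted p = 0.111). The sum without close copies was 8215 ± 785 CPM in Pre-MET and 5224 ± 1255 in Normal mice, still without overlap, while it overlapped Relapse-free (6241 ± 1301). In T_CD4_Lef1 the same mice gave opposite signs for the 2 kinds of row, with 0.55 ± 0.16 for mt-Atp6 and 0.83 ± 0.20 for mt-Co3 but -0.55 ± 0.15 for mt-Nd1 and -0.44 ± 0.18 for mt-Cytb (adjusted p between 0.154 and 0.33). In Mon_Ace mt-Atp6 differed by 1.08 ± 0.23 and mt-Cytb by 0.023 ± 0.19 (adjusted p = 0.059 and 0.991). The fitted differences of mt-Atp6, mt-Co1 and mt-Co3 were thus above 0 in all 3 labels, whereas that of mt-Cytb was 0.75 in Mon_Fn1 and near or below 0 in the others, a contrast between labels that was not tested as such.

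Pre-MET and Relapse-free lungs shared batches SB99 and SB111, which allows a comparison inside a batch. In SB111, where all plates had the CD45+ gate, the nuclear sum of Mon_Fn1 was 28639 and 30281 CPM in Pre-MET mice 8 and 10 and 20705 and 22931 in Relapse-free mice 6 and 7, and the mitochondrial sum was 16487 and 21158 against 11038 and 11489. The sum without close copies was 7587 and 9669 against 4942 and 4951. In SB99 the nuclear sum was 28925, 29149 and 32280 in the 3 Pre-MET mice and 16201 and 21944 in the same 2 Relapse-free mice, and the mitochondrial sum 20642, 20369 and 21323 against 18483 and 14187. Pre-MET values were above Relapse-free values in both batches and for both sums, with mice 6 and 7 as the only Relapse-free mice. T_CD4_Lef1 cells pooled in SB111 had nuclear sums of 18429 CPM in Pre-MET and 22117 in Relapse-free lungs and mitochondrial sums of 37454 and 33062, while in SB99 the orders were the opposite, at 23322 and 19581 for nuclear and 29349 and 36443 for mitochondrial members. That label thus had no common direction in the 2 batches. The rows mt-Co2, mt-Atp6 and mt-Co1 in Mon_Fn1 did not follow the sum in SB99. mt-Co2 had 2773 to 3017 CPM in Pre-MET mice and 4564 and 1558 in Relapse-free mice 6 and 7. mt-Atp6 of mouse 6 was 2564, above Pre-MET mouse 9 at 2267. mt-Co1 of mice 6 and 7 was 3663 and 3624, above mouse 9 at 3289. In SB111 these rows were higher in Pre-MET without overlap, and mt-Co3 was so in both batches. The gate differed in SB99 as well, where all Pre-MET cells had the CD45+ gate, as did 28 of the 32 Mon_Fn1 cells of mouse 6, but those of mouse 7 were sorted as 34 GFP+ and 19 GFP-.

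Other features of Mon_Fn1 differed between the groups. The 10 tissue handling genes (Fos, Jun, Hspa1a and the like, none at 0 in any group) summed to 4671 to 5951 CPM in Pre-MET, 7430 to 8418 in Normal and 5795 to 11001 in Relapse-free mice. The neutrophil markers S100a8 and S100a9 summed to 937 to 2126, 73.8 to 439 and 399 to 7167 CPM, and markers of epithelial tumor cells reached at most 13.4 CPM. The part of these in the differences was not tested. The number of Mon_Fn1 cells per mouse was 130 to 204 in Pre-MET, 24 to 37 in Normal and 12 to 137 in Relapse-free mice. Other genes of the pathway had 0 calls here too, with medians of 0.18 against Normal (32 tested) and 0.21 against Relapse-free (35 tested).

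**Figure D4:**
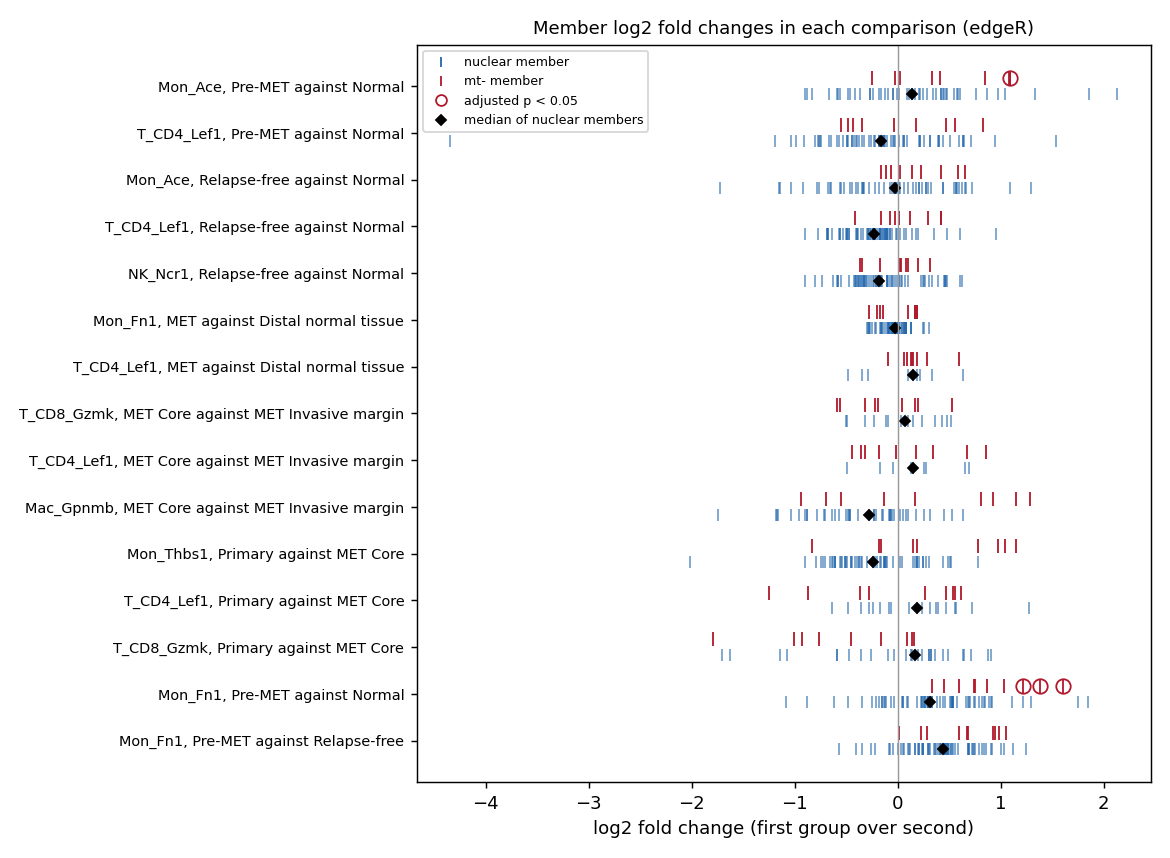
Fitted log2 fold change (edgeR, first named group over second) of each member tested in the 13 comparisons and the 2 added for Mon_Fn1 (bottom rows). Blue ticks are nuclear members, red ticks mt- members, diamonds the nuclear median, and circles the 4 calls at an adjusted p below 0.05, all of mt- members in Pre-MET against Normal lungs.

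Photoactivation itself could be checked in mice 6 and 7, whose lungs were sorted into GFP+ and GFP- immune cells. Over labels with both sums, the median log2 ratio of GFP+ to GFP- was -0.109 for nuclear and 0.048 for mitochondrial members in mouse 6 (6 labels), and -0.051 and 0.096 in mouse 7 (13 labels). GFP+ cells had the higher nuclear sum in 1 of 6 and 5 of 13 labels. In mouse 7 single labels ranged from -0.469 to 0.316 for nuclear and from -0.222 to 0.799 for mitochondrial members. Gate and batch were partly the same in that mouse. All 34 GFP+ Mon_Fn1 cells were in SB99, but only 19 of the 82 GFP- ones, so these ratios hold both.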

How the data were processed

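The authors sorted single cells into 384-well plates, sequenced them with a UMI-based plate method (SPID-seq), demultiplexed with bcl2fastq 2.15.0.4 per the labels, mapped reads to mm10 with HISAT, excluded reads with multiple mapping positions, assigned reads to exons of the UCSC genome browser's annotation and discarded cells under 500 UMIs. The deposited values are raw UMI counts per gene and well, without normalization, for 148 plates, with the authors' annotation of 24020 cells. The release of that annotation is not given in the sources used here. Erythrocytes, tumor cells and outliers (595 cells) were left out. The 384 well barcodes are shared by all plates by design, 0 pairs of plates held identical counts, and doublets were treated only as the authors' annotation did.

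Samples (1 mouse in 1 tissue status) held 55 to 1974 immune cells and 48306 to 2745794 UMIs. Counts were summed per mouse, status and label (10 or more cells), since cells are not replicates. The p-values measure the spread between mice. Tests used edgeR 4.0.16 (filterByExpr, TMM, quasi-likelihood, two-sided, Benjamini-Hochberg over all genes tested) under R 4.3.3 on the sums of the 2 groups compared, in place of the study's rank test on pooled cells. DESeq2 1.42.0 was an alternative. SE is the log2 fold change divided by the square root of F. The fits were tested on simulated counts with known 2-fold changes, drawn from these samples' means. Outside the comparisons of MET with Distal normal tissue most changed genes were not called there, and in some none, so a count of 0 calls carries little information. Sums over members and contrasts between labels have no test.

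Close copies are transcripts of GENCODE vM21 (GRCm38) that match a member over 60 or more bases at 99% or more (BLASTN 2.17.0). Named genes were every mt- member, the 12 nuclear members of highest mean CPM, 6 isoform groups and every called member. Cox7c, Atp5l, Atp5h, Ndufaf8, Uqcr10 and Uqcr11 were named after their values or sequences were seen. The labels DC_pDC, Mac_Cd81 and Mon_MHC-II were singled out in the same way. The members, lists and comparisons were chosen with earlier results of these data known, and the 2 comparisons of Mon_Fn1 in Pre-MET lungs were added after the sums had been seen. Samples of the same mouse pair MET with Distal normal tissue and MET Core with MET Invasive margin. Deviations of paired sums correlated between -0.009 and 0.416 for Mon_Fn1 in MET and Distal normal tissue (12 mice).

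The alternatives were no filter on low counts, DESeq2, no TMM factors, cells of 1000 or more UMIs, a minimum of 20 cells, the lineage in place of the label, batch as a covariate, single batches, totals without mt- or ribosomal genes, each mouse left out, the mouse as a block and, added later, pseudogene rows added to the mt- rows and the mt- sum without close copies.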

Additional observations from a re-analysis of the deposited data

Results flagged for a closer look

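In groups of 4 to 10 sums, with the nuclear and the mitochondrial sum of a group tested apart (26 tests), 3 tests found a mouse far from the rest by Dixon's criterion, which chance alone meets in about 1 of 20. In T_CD8_Gzmk of MET Invasive margin, mouse 33 had a mitochondrial sum of 14452 CPM, and the other 4 mice had 23426 to 25243. That sum held 14 cells and 8788 UMIs. In Mac_Gpnmb of MET Invasive margin, mouse 36 had a mitochondrial sum of 5477 CPM from 11 cells, and the other 3 mice had 10755 to 11799. In Mon_Thbs1 of MET Core, mouse 36 had a nuclear sum of 10236 CPM from 16 cells, and the other 7 mice had 20830 to 27649.

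Counts outside the members also stood out. The pseudogene row Gm29216, a near-identical copy of part of mt-Co1, held 204062 UMIs in immune cells, and Gm28437, a copy of mt-Co3, held 44458. Neither row belongs to the genes chosen by symbol, so their counts enter no comparison of the members above.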

How the results depend on the processing

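Calls depended on the setting where few mice were compared. The counts below are of members alone, without the share of all genes called under the same setting. They therefore do not show whether a setting changed calls of members more than calls of other genes. For Mon_Ace of Pre-MET against Normal, with 1 member called, DESeq2 called 4, the fit without TMM factors 2, the fit with pseudogene rows added to the mt- rows 2, cells of 1000 or more UMIs 0, and all monocytes in place of the label 7, and the fits without 1 mouse called 0 to 2. For T_CD4_Lef1 of Pre-MET against Normal, with 0, the fit without a filter on low counts, DESeq2 and all T cells called 2 each. For Mon_Thbs1 of Primary against MET Core, with 0, DESeq2 called 2, no TMM factors 1, added pseudogene rows 1, and leaving out 1 mouse 0 to 2. In that comparison 2 were called without Primary mouse 8. For T_CD8_Gzmk of Primary against MET Core DESeq2 called 1. With the mouse as a replicate block, for mice that gave both samples, edgeR called 0 members in all 4 paired comparisons, so the pairing changed no call. Batch as a covariate could be fitted in 7 comparisons, none with Normal lungs, and called 0 members in each. For the added comparison of Mon_Fn1 of Pre-MET against Normal, with 3 called, no filter on low counts gave 8 and all monocytes 7. The cause of these changes was not tested.

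On the log2 scale, Mon_Fn1 over T_CD4_Lef1, 0.318 for nuclear members, was -0.044 within SB102 and 0.695 within SB123, and for mitochondrial members, -1.14, it was -0.801 within SB99, -1.634 within SB102, -0.826 within SB123 and -0.858 within SB126. For tissue comparisons, differences of mean log2 sums follow, with the value as first computed in brackets. With the lineage in place of the label, the nuclear difference was 0.40 [0.218] for Mon_Ace of Pre-MET against Normal and turned to 0.122 [-0.272] for Mac_Gpnmb of MET Core against MET Invasive margin. The mitochondrial difference was then 0.709 [0.446] for Mon_Ace of Pre-MET against Normal and 0.05 [0.401] for Mon_Thbs1 of Primary against MET Core, and turned to 0.098 [-0.42] for T_CD8_Gzmk of Primary against MET Core. With cells of 1000 or more UMIs it turned to -0.21 [0.079] for T_CD4_Lef1 of MET against Distal normal tissue. Without close copies it turned to -0.033 [0.446] for Mon_Ace of Pre-MET against Normal and to -0.454 [0.055] for Mac_Gpnmb of MET Core against MET Invasive margin, and was -0.441 [-0.074] for T_CD4_Lef1 of Pre-MET against Normal, and 0.752 [0.401] for Mon_Thbs1 and 0.355 [0.09] for T_CD4_Lef1 of Primary against MET Core. With pseudogene rows added it was 0.663 [0.446] for Mon_Ace and turned to 0.137 [-0.074] for T_CD4_Lef1 of Pre-MET against Normal. The other 416 recomputed values of the planned comparisons kept within the spread of replicates or within 1.5 times the count. Sums of 10 to 20 cells and the 3 mice of the Normal and Pre-MET groups limit what could be detected.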

Other observations

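In Mon_MHC-II, monocytes labeled for antigen presentation genes, the mitochondrial member sum was 18898 ± 4591 CPM in 3 Pre-MET lungs and 10144 ± 2926 in 3 Normal lungs. It was 13374 ± 3378 in 4 Relapse-free and 14565 ± 4081 in 4 MET samples, and both overlapped Pre-MET (15976 to 24189). The Normal mice were all in batch SB102, so that status and batch cannot be told apart here either. Mon_MHC-II was in no tested comparison and was singled out after its values were seen.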
